A study of Mus musculus with 12 samples.

Results

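The genes described here are 10 that encode proteins of the adult skeletal muscle fibre: the myosin heavy chains Myh1, Myh2, Myh4 and Myh7, the myosin light chains Mylpf and Myl2, the thin filament genes Acta1, Tnnt3 and Tnni2, and the muscle creatine kinase Ckm. They were chosen by symbol, and each symbol matched 1 of the 54532 rows of the count table, so all 10 were found. Expression was measured by RNA-seq in the liver and subcutaneous fat of male mice. At 10 weeks of age each mouse had received, through the tail vein, a single dose of AAV8, an adeno-associated viral vector. In the hHKDC1 OE group the vector carried the full-length human hexokinase domain containing 1 cDNA under TBGp, a promoter active in hepatocytes, and in the null group it was the AAV8-TBGp vector without the cDNA. All mice were kept on a low-fat diet until 16 weeks after injection. The 12 libraries were 3 per tissue and vector, and they held 15496019 to 19954971 counts assigned to genes. The libraries are called null 1 to 3 and OE 1 to 3 within each tissue, and CPM means counts per 1000000 counts of a library after TMM scaling within that tissue.

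A skeletal muscle fibre contracts when myosin heavy chains of the thick filament pull on actin of the thin filament, under the control of calcium and the troponin complex. Each fibre expresses mainly 1 adult heavy chain, which sets its type: Myh7 marks slow type I fibres, Myh2 fast oxidative type IIA fibres, Myh1 type IIX fibres and Myh4 the fastest, glycolytic type IIB fibres. Mature adipocytes and hepatocytes are not known to build such filaments. In whole-tissue RNA, fewer muscle cells and less of a transcript per muscle cell cannot be told apart.

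The defining markers of the 2 tissues were present under their labels. The 10 adipocyte genes summed to 28391 to 45908 CPM in fat and to 2084 to 3035 CPM in liver, where Car3 alone gave 2042 to 2995 CPM and each of the other 9 at most 18.4 CPM. The 10 hepatocyte genes summed to 71716 to 114288 CPM in liver and 904 to 8080 CPM in fat. In fat the hepatocyte genes summed to 2801, 2892 and 8080 CPM in null 1, 2 and 3 and to 2226, 904 and 1399 CPM in OE 1, 2 and 3, so null 3, the fat library lowest in the members, was the highest in them. All 10 hepatocyte genes had a lower mean in OE fat, 5 of them at an unadjusted p under 0.05 and 0 after adjustment (edgeR); of all 16380 genes tested in fat, 8824 had a lower mean and 6.39% were lower at that unadjusted p. The human cDNA has no row in the mouse table, and the mouse gene Hkdc1 held 0 to 8 counts in each of the 12 libraries, so the vector cannot be checked with these counts. Fat libraries of 1 group differed strongly in more than muscle genes: the summed B cell list lay at 1.92 to 3.52 CPM in null fat and at 830, 46.8 and 606 CPM in OE 1, 2 and 3. The part of these differences in the muscle values was not tested.

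The 3 fast heavy chain genes that lead this list are neighbours on chromosome 11 of the GRCm38 build, all on the plus strand in the order Myh2, Myh1, Myh4. Myh2 (ENSMUSG00000033196, chromosome 11, 67171027 to 67197517, plus strand) ends 2534 bases before Myh1 (ENSMUSG00000056328, chromosome 11, 67200052 to 67224575, plus strand), which ends 13453 bases before Myh4 (ENSMUSG00000057003, chromosome 11, 67238029 to 67260446, plus strand). Their upstream sequences are shown because the 3 genes lie side by side and yet took different values in the same fat libraries. The sequences come from RefSeq (GRCm38.p6), run 5′ to 3′ up to the transcription start, and capitals mark the longest stretch that all 3 share, 20 bases long. The stretch for Myh1 stops where the gene begins in the count table, 50 bases before its RefSeq start.
Myh2, chr11:67170777-67171026, plus strand, 250 bases: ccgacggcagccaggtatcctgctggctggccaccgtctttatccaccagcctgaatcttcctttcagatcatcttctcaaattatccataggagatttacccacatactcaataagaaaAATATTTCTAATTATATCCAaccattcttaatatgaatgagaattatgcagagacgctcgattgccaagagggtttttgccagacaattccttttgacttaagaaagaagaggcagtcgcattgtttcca
Myh1, chr11:67199852-67200051, plus strand, 200 bases: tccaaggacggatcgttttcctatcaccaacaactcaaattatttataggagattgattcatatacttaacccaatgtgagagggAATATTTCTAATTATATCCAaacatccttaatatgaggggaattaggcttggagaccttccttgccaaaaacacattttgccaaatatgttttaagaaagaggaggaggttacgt
Myh4, chr11:67237562-67237811, plus strand, 250 bases: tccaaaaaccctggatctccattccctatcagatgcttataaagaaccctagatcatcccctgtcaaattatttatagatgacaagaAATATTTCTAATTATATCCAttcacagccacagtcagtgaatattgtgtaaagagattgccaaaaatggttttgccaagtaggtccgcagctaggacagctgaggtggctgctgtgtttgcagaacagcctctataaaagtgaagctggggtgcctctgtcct
The shared stretch began 130 bases before the RefSeq start of Myh2, 165 bases before that of Myh1 and 163 bases before that of Myh4. Among 32851 RefSeq promoter windows of 250 bases it was found, on either strand, in 3, those of Myh1, Myh2 and Myh4.

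The letters TATAAA, read on both strands, occurred 3 times in the 250 bases before the start of Myh4, 2 times before Myh1 and in no place before Myh2, and 12.4% of all promoter windows held them. The E-box letters CANNTG, which myogenic factors of the MyoD family can bind, occurred 2 times before Myh4 and were not found before Myh1 or Myh2, against 66.2% of all windows. A MEF2 motif was found in the windows of Myh4 and Myh1, 182 and 211 bases before the start, and 2.92% of all windows held one; the Myh4 and Acta1 windows held a CArG box, as did 1.47% of all windows. RefSeq windows were matched for 8 of the 10 members. These matches describe letters only, and no binding was measured.

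The other members lie apart from this cluster. Myh7 (ENSMUSG00000053093, chromosome 14, 54970684 to 54994626, minus strand), the slow heavy chain, is paired in slow fibres with the regulatory light chain Myl2 (ENSMUSG00000013936, chromosome 5, 122100951 to 122113472, plus strand). Acta1 (ENSMUSG00000031972, chromosome 8, 123891769 to 123894751, minus strand) encodes the actin of the skeletal thin filament. The fast troponin T gene Tnnt3 (ENSMUSG00000061723, chromosome 7, 142498836 to 142516009, plus strand) and the fast troponin I gene Tnni2 (ENSMUSG00000031097, chromosome 7, 142441808 to 142444410, plus strand) lie close together, and both belong to the calcium switch on that filament. Mylpf (ENSMUSG00000030672, chromosome 7, 127208890 to 127214298, plus strand) encodes the regulatory light chain of fast myosin, and Ckm (ENSMUSG00000030399, chromosome 7, 19404776 to 19422841, plus strand) regenerates ATP from phosphocreatine beside the filaments. The library type kept no strand, and 5 members overlap exons of another gene in the GENCODE annotation, by at most 15.5% of their exon bases for any single other gene, so a part of their counts may be lost or shared; Myh4, Acta1, Tnnt3, Tnni2 and Mylpf have no such overlap.

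The 6 fat libraries were very unequal in these genes. Together the 10 members took 1.76%, 2.10% and 0.0536% of all counts in null 1, 2 and 3 and 1.64%, 0.112% and 0.263% in OE 1, 2 and 3. The exact 95% binomial intervals of these shares spanned at most 0.0134 percentage points, and they cover counting error only. Null 1, null 2 and OE 1 held 93.3% of the members' counts in fat, so 1 library of the null group and 2 of the OE group were low.

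Summed CPM gave the same picture, with 18950.0, 23046 and 533 CPM in null 1, 2 and 3 and 15480.0, 1053 and 2526 CPM in OE 1, 2 and 3. The mean was 14176 ± 11992 CPM (SD, n = 3) in null fat and 6353 ± 7938 CPM (SD, n = 3) in OE fat, so each group's SD was of the size of its mean. The highest library stood 43.3 times above the lowest within the null group and 14.7 times within the OE group. The lowest of all 6 was a null library and the highest was another null library.

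**Figure D1:**
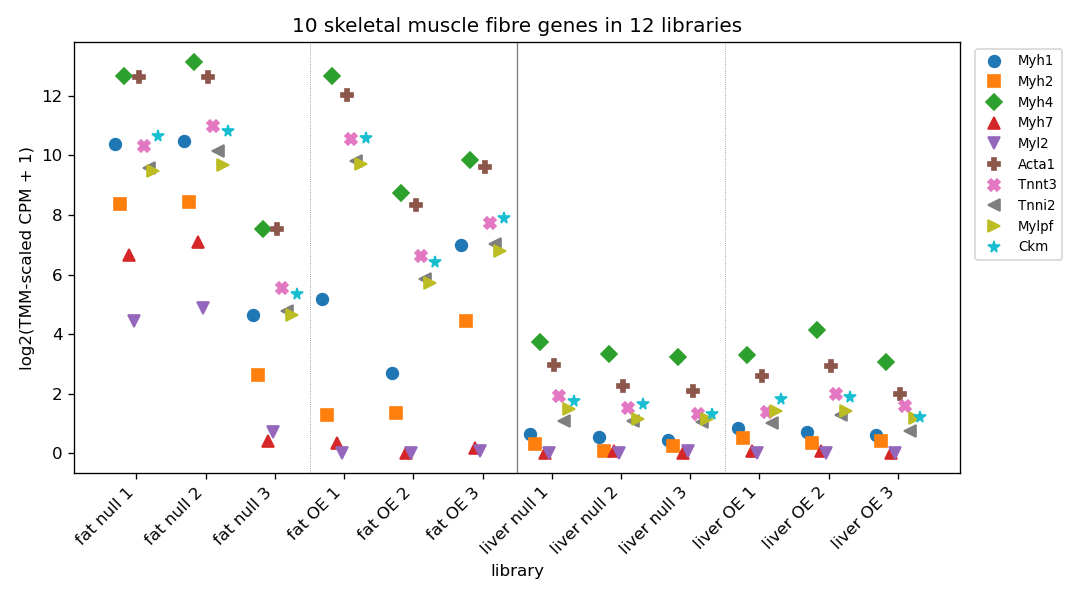
Each marker is 1 member in 1 library, on a log2(CPM + 1) axis, with the 6 fat libraries at left and the 6 liver libraries at right. Myh4 and Acta1 are the highest members in each library, null 1, null 2 and OE 1 stand high in fat, and Myh1, Myh2, Myh7 and Myl2 are low in OE 1 while the other members are high there.

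Myh4, the type IIB heavy chain, measured 6535, 8980.0 and 184 CPM in null 1, 2 and 3 and 6514, 430.2 and 908 CPM in OE 1, 2 and 3. It was the 13th, 8th and 8th most counted gene in null 1, null 2 and OE 1 and the 820th in null 3. Acta1 measured 6275, 6388 and 183 CPM in null 1, 2 and 3 and 4182, 324 and 784 CPM in OE 1, 2 and 3. Both genes split the libraries as the sum did, into 3 high and 3 low with each group on both sides.

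Ckm followed the same split, with 1614, 1794 and 39.6 CPM in null 1, 2 and 3 and 1516, 85.5 and 235 CPM in OE 1, 2 and 3. Tnnt3 measured 1284, 2003 and 46 CPM in null 1, 2 and 3 and 1507, 97.7 and 212 CPM in OE 1, 2 and 3. The other fast troponin subunit, Tnni2, measured 756, 1124 and 26.1 CPM in null 1, 2 and 3 and 895, 56.6 and 129 CPM in OE 1, 2 and 3. Both troponin genes therefore had their 3 lowest values in null 3, OE 2 and OE 3. Mylpf measured 703, 821 and 24.1 CPM in null 1, 2 and 3 and 829, 52.1 and 110.0 CPM in OE 1, 2 and 3, and was the 1 member whose highest fat library was OE 1.

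These 6 genes kept nearly fixed proportions while their level changed by more than an order of magnitude. Of their summed counts in a library, Myh4 made up 36.6% to 42.5%, Acta1 27.1% to 36.6%, Ckm 7.87% to 9.88%, Tnnt3 7.48% to 9.76%, Tnni2 4.40% to 5.79% and Mylpf 3.89% to 5.37% across the 6 fat libraries. The highest share stood 1.16 to 1.38 times above the lowest. Across the same libraries the level of each of the 6 genes ranged 34.4- to 48.9-fold.

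Myh1 and Myh2 did not keep to that proportion. Myh1, the type IIX heavy chain, measured 1330.5, 1430.1 and 24.1 CPM in null 1, 2 and 3 and 35.3, 5.46 and 128 CPM in OE 1, 2 and 3. OE 1 was thus 40.5 times below null 2 in Myh1, while for Myh4 null 2 stood 1.38 times above OE 1. OE 3, which had 7.17 times less Myh4 than OE 1, had 3.61 times more Myh1.

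Myh2, the type IIA heavy chain, measured 331, 343 and 5.23 CPM in null 1, 2 and 3 and 1.47, 1.56 and 20.6 CPM in OE 1, 2 and 3. OE 1 and OE 2 were its 2 lowest libraries, and null 2 was 234 times above OE 1. In counts, Myh2 had 5459, 5536 and 98 counts in null 1, 2 and 3 and 31, 32 and 336 counts in OE 1, 2 and 3, so its low values still rest on at least 31 counts.

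The slow fibre genes Myh7 and Myl2 were read almost wholly in null 1 and null 2. Myh7 had 1640, 2177 and 6 counts in null 1, 2 and 3 and 6, 0 and 2 counts in OE 1, 2 and 3, or 99.5, 135 and 0.32 CPM in null 1, 2 and 3 and 0.284, 0 and 0.123 CPM in OE 1, 2 and 3. Myl2 had 344, 461 and 12 counts in null 1, 2 and 3 and 0, 0 and 1 counts in OE 1, 2 and 3, or 20.9, 28.5 and 0.641 CPM in null 1, 2 and 3 and 0, 0 and 0.0614 CPM in OE 1, 2 and 3. A library with 0 counts allows up to 3 counts of its total. Null 3 held 6 counts of Myh7 and 12 of Myl2, against 1640 or more and 344 or more in the other null libraries. Every OE library lay below every null library in Myl2. In Myh7, null 3 and OE 1 held the same 6 counts and differ in CPM by the scaling alone, so the groups meet in that gene.

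The heavy chains can be set against each other in counts per kilobase of exon, which corrects for gene length. Myh4 made up 80.2%, 83.8% and 87.0% of the 4 adult heavy chains in null 1, 2 and 3 and 99.5%, 98.5% and 86.8% in OE 1, 2 and 3. Myh1 made up 15.5%, 12.6% and 10.8% in null and 0.511%, 1.18% and 11.6% in OE. Myh2 ranged from 2.09% to 3.43% in null and from 0.0189% to 1.66% in OE, and Myh7 from 0.106% to 0.878% in null and from 0% to 0.00819% in OE.

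Null 3 and OE 3, which were low in muscle RNA, therefore kept a Myh1 share near that of null 1 and null 2 and a lower Myh2 share, 2.09% and 1.66% against 3.43% and 2.69%, whereas OE 1 and OE 2 were nearly pure in Myh4. Relative to Myh4 per kilobase, Myh1 stood at 15.6% ± 3.45 in null and 5.01% ± 7.20 in OE (SD, n = 3), with overlapping groups. The same ratio for Myh2 was 3.30% ± 0.939 in null and 0.746% ± 1.02 in OE (SD, n = 3), and for Myh7 it was 0.744% ± 0.539 and 0.00416% ± 0.00482. The groups did not overlap in the last 2 ratios, which are given as descriptions.

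**Figure D2:**
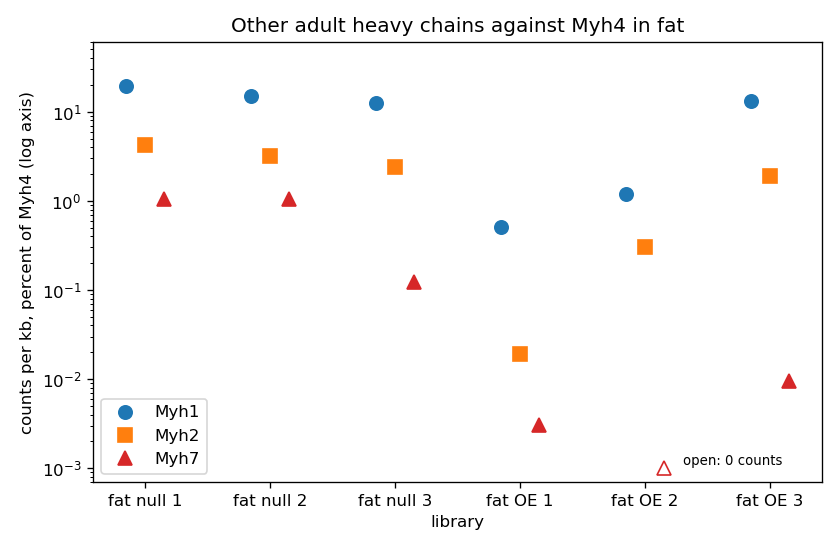
Counts per kilobase of Myh1, Myh2 and Myh7 as a percentage of Myh4 in each fat library, on a log axis; the open marker stands for 0 counts. Myh1 lies between 12.4% and 19.3% in the 3 null libraries and OE 3, and at 0.513% and 1.20% in OE 1 and OE 2.

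The spread of the members was far above that of most genes. The SD of log2(CPM + 1) over the 6 fat libraries had a median of 2.33 over the 9 members that passed the filter on low counts, against 0.321 over all 16380 genes tested in fat. Within groups, the pooled SD had a median of 2.54 for the same 9 members and 0.288 for all genes. The highest library stood a median of 44.5 times above the lowest for the 8 members with counts in every fat library, against 2.01 times for 16034 genes.

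Ranked by that SD, Myh2 was 3rd, Myh1 5th, Ckm 79th, Myh4 81st, Myl2 95th and Mylpf 124th of 16380. Myh7, which missed the filter because it had more than 6 counts in only 2 libraries, had an SD of 3.43, above all genes tested. The 124 genes at or above Mylpf were 0.757% of those tested, and 32 of them belonged to the 100 genes of the muscle lists. Leaving out null 3 brought the range of the summed CPM over the fat libraries from 43.3-fold down to 21.9-fold.

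**Figure D3:**
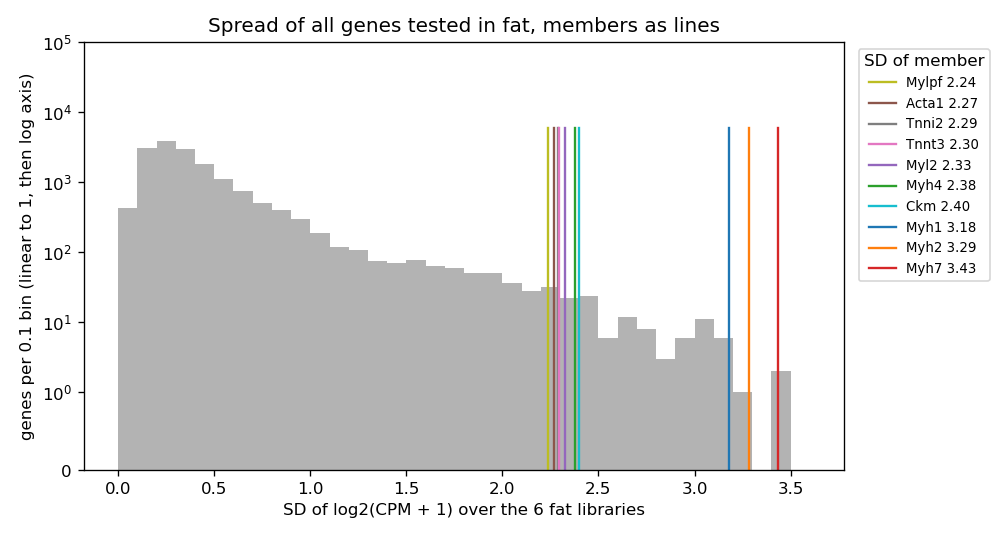
Histogram of the SD of log2(CPM + 1) over the 6 fat libraries for all genes tested in fat, with the members as vertical lines. Most genes lie below 1 and the members lie between 2.24 and 3.43.

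The comparison of hHKDC1 OE with null fat asked what a hepatocyte-directed transgene changed in a distant depot. All 9 members tested had a lower mean in OE fat, as 8824 of all 16380 genes tested did, but none was called at an adjusted p under 0.05 by edgeR (quasi-likelihood test, p adjusted by Benjamini-Hochberg over all genes), and neither was any other gene tested (0% lower). At an unadjusted p under 0.05, 3 of the 9 members were lower, Myh1, Myh2 and Myl2, against 6.39% of all genes. Of these 3, Myl2 passed the filter on low counts only through null fat, where it was high. At that level 1856 genes were higher and 1047 lower, while DESeq2 called 1256 genes higher and 196 lower after adjustment. The median log2 fold change was -0.9996 over the 9 members and -0.05 over all genes.

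The 6 other members tested had changes no larger than their standard errors. The log2 fold change was -0.9996 ± 1.37 (SE) for Myh4, -1.28 ± 1.29 for Acta1, -0.91 ± 1.36 for Ckm, -0.88 ± 1.34 for Tnnt3, -0.82 ± 1.33 for Tnni2 and -0.64 ± 1.31 for Mylpf. Adjusted p-values from edgeR were 0.610 to 0.810 for these 6 genes, and the groups overlapped for each. Without OE 1 their fitted changes were -2.67 to -2.97, and without null 2 or OE 2 the one nearest 0 was -0.15, so a single library moved the estimate by more than its main value.

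Myh1 had a log2 fold change of -4.05 ± 1.56 (adjusted p = 0.251, edgeR) and an exact two-sided permutation p of 0.3 on CPM. Myh2 had one of -4.86 ± 1.66 (adjusted p = 0.213, edgeR) and an exact permutation p of 0.2. With 3 libraries against 3 the smallest exact p is 0.1, so the permutation test could not reach 0.05. The unadjusted call of Myh1 was lost without null 1, null 2, OE 1 or OE 2, and that of Myh2 without OE 1. Both were also lost with the replicate number as a block (unadjusted p = 0.139 for Myh1 and 0.0882 for Myh2, edgeR) and with limma on log2(FPKM + 1) (0.0872 and 0.0526) or log2(FPKM + 0.1) (0.109 and 0.0633).

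Myl2 had a fitted log2 fold change of -9.42 ± 1.79 in edgeR, with an adjusted p of 0.133 and an exact permutation p of 0.1. It was 1 of 9 members tested whose OE libraries all lay below the null libraries (10.2% of all genes tested). Myl2 passed the filter on low counts only through its null libraries, where it was high, so its test and this non-overlap are no independent support. Its 817 counts in null against 1 in OE gave, after division by the effective library sizes of the groups, a ratio of 922 (95% counting interval 165 to 36445), while the fitted value depends on edgeR's prior count and is no bound. Myh7 was not fitted after the filter; its 3823 counts in null against 8 in OE gave a ratio of 539 scaled in the same way (counting interval 273 to 1249), and its lowest null and highest OE library tie at 6 counts. These intervals leave out the spread between libraries.

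The call for these 2 slow genes depended on the method. DESeq2 called Myh7 (adjusted p = 0.000265) and Myl2 (adjusted p = 6.07e-05) lower in OE, 2 of the 9 members it gave a p for, against 1.02% of all genes called lower. It gave no p for Myh2. edgeR without a filter also called both, with adjusted p-values of 0.0130 and 0.00982, against 0.268% of all genes called lower. Leaving out null 3, the null library low in both genes, gave edgeR calls for both at an adjusted p of 0.0398. In that fit 0.0116% of all genes were called lower. Both genes passed its filter only through null 1 and null 2, where they were high, so these calls are no support for a lower level in OE. Leaving out OE 1 gave an adjusted p of 0.353 for both in edgeR. Without OE 2, when 7.53% of all genes were called lower, Myl2 was called in edgeR (adjusted p = 0.0343). With the 12 libraries in 1 fit it was called too (adjusted p = 0.0180, edgeR), against 0.621% of all genes called lower. Over all alternatives run, the adjusted p ran from 6.07e-05 to 0.407 for Myl2 and from 0.000265 to 0.412 for Myh7.

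**Figure D4:**
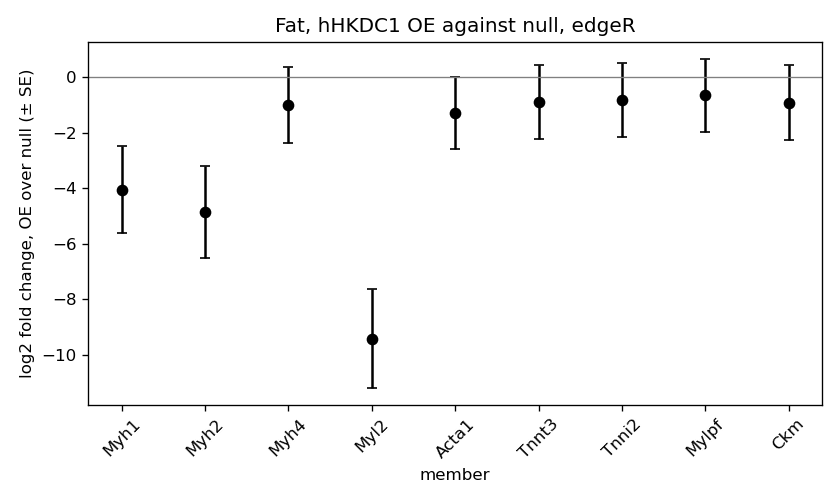
edgeR log2 fold change of OE over null fat for the 9 members tested, with bars of 1 SE. Myh4, Acta1, Ckm, Tnnt3, Tnni2 and Mylpf lie between -1.28 and -0.64 with bars that reach 0, and Myh1, Myh2 and Myl2 lie at -4.05, -4.86 and -9.42.

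Other genes of the fibre, 90 in 6 lists, were counted in the same way. Of these, 81 were tested in fat; 78 had a lower and 3 a higher mean in OE, 9 were lower at an unadjusted p under 0.05 (6.39% of all genes) and none was called after adjustment by edgeR. Of all 16380 genes tested, 8824 had a lower mean. Their median log2 fold change was -1.38. The 3 highest libraries were null 1, null 2 and OE 1 for 6 of the 9 members tested and for 5.48% of all genes tested. The same 3 led in 8 of 12 other filament genes, 16 of 20 Z disc and M band genes and 16 of 19 calcium genes. They also led in 13 of 15 energy genes, 10 of 12 myogenic genes and 2 of 3 further heavy chains, the embryonic Myh3 and the perinatal Myh8 but not Myh7b. This count was chosen after the values were seen.

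Among the other filament genes, the fast light chain gene Myl1 measured 1259, 1349 and 82 CPM in null 1, 2 and 3 and 1177, 118 and 231 CPM in OE 1, 2 and 3. The tropomyosin gene Tpm1, whose product lies along the actin filament, measured 1830.5, 2035 and 136 CPM in null 1, 2 and 3 and 1638, 213 and 279 CPM in OE 1, 2 and 3. Its relative Tpm2 measured 1122, 1619 and 69.8 CPM in null 1, 2 and 3 and 709, 79.8 and 166 CPM in OE 1, 2 and 3. All had the split of Myh4, with null 3 lowest. The fast troponin C gene Tnnc2 held 0 counts in all 12 libraries; 74.0% of its exon bases are also exon bases of Ube2c on the other strand in the GENCODE annotation, and the effect of this overlap was not tested.

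Several slow fibre genes were low in OE 1, as Myh7 was, and other genes that slow fibres use were less so. Relative to the mean of null 1 and null 2, OE 1 held 0.0122 to 0.0524 of the CPM of Tnnc1, Tnni1, Tnnt1, Myl3 and Myoz2, slow fibre genes named here after their values were seen. Other genes that slow fibres use held more there. The ratios in OE 1 were 1.21 for Tpm3, a tropomyosin, 0.476 for Atp2a2, the slow calcium pump, and 0.188 for Casq2, a calcium store. Tpm3 and Atp2a2 were also read in liver, at 47.1 to 68.6 and 145 to 194 CPM, so their fat values need not come from slow fibres. OE 1 held 0 to 0.0256 of Myh1, Myh2, Myh7 and Myl2, and 0.661 to 1.09 of the 6 other members. Null 3 held 0.0232 to 0.0317 of those 6 and 0.00273 to 0.0259 of the 4, so it was low in all 10. The median of the same ratio over the 16221 genes it could be formed for was 0.962 in OE 1 and 0.998 in null 3.

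The slow troponin T gene Tnnt1 measured 17.7, 32.3 and 0.801 CPM in null 1, 2 and 3 and 0.615, 0.195 and 1.23 CPM in OE 1, 2 and 3. Mybpc1, the slow myosin binding protein C that oxidative fast fibres also use, measured 434, 486 and 10.6 CPM in null 1, 2 and 3 and 15.6, 2.05 and 65.2 CPM in OE 1, 2 and 3. Its fast relative Mybpc2 measured 774, 907 and 19.4 CPM in null 1, 2 and 3 and 627, 36.8 and 79.5 CPM in OE 1, 2 and 3. OE 1 was thus near null 1 and null 2 in Mybpc2 and near null 3 in Mybpc1. The oxygen store Mb measured 212, 254 and 4.32 CPM in null 1, 2 and 3 and 17.4, 1.41 and 32.8 CPM in OE 1, 2 and 3, and OE 3 was above OE 1 in it, as in Myh1.

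**Figure D5:**
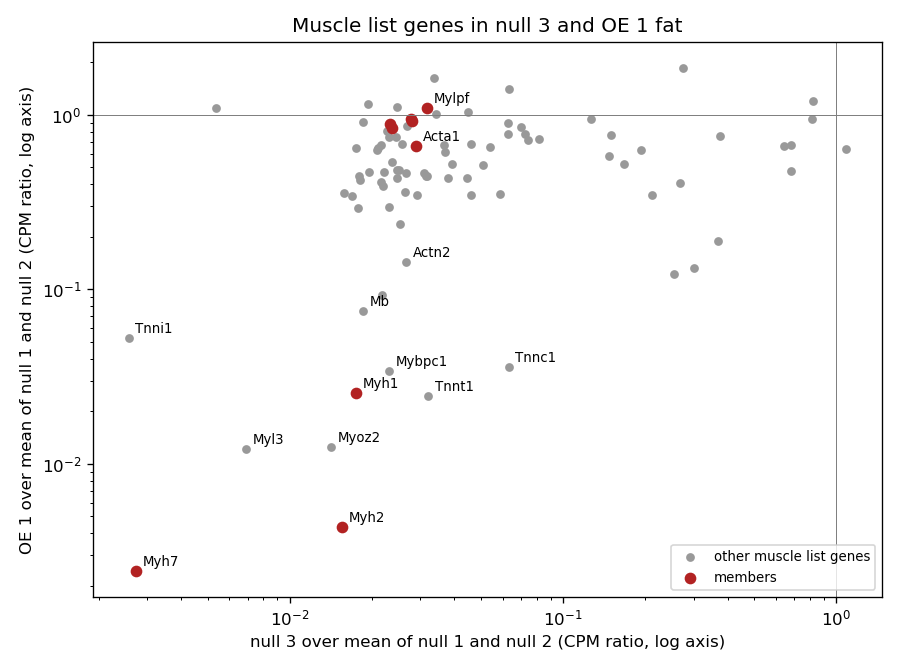
Each point is 1 of 90 muscle list genes with a value above 0 in the libraries plotted (of 100 in the lists); the axes give the CPM ratio of null 3 (x) and of OE 1 (y) to the mean of null 1 and null 2, both on log axes. Most genes lie near 0.02 to 0.1 in null 3 and above 0.2 in OE 1, and the points below 0.1 in both are Myh1, Myh2, Myh7, Tnnc1, Tnni1, Tnnt1, Myl3, Myoz2, Mybpc1, Mb and Vgll2.

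The giant protein Ttn, the spring that spans the sarcomere from Z disc to M band, measured 2119, 3005 and 56.5 CPM in null 1, 2 and 3 and 1205, 78.9 and 279 CPM in OE 1, 2 and 3. Neb, the ruler of the thin filament, measured 1059, 1274 and 22.7 CPM in null 1, 2 and 3 and 547, 37.3 and 135 CPM in OE 1, 2 and 3. Actn3, the Z disc actinin of fast fibres, measured 1466, 1623 and 32.4 CPM in null 1, 2 and 3 and 1002, 60.3 and 186 CPM in OE 1, 2 and 3. All 20 genes of this list had a lower mean in OE and 2 of them an unadjusted p under 0.05, near the 6.39% of all genes. The OE 1 ratio to null 1 and null 2 had a median of 0.454 in the list, below that of the 6 members at 0.903.

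In the calcium list, Atp2a1, the fast calcium pump of the sarcoplasmic reticulum, measured 3667, 4381 and 95.3 CPM in null 1, 2 and 3 and 2160.5, 134 and 503 CPM in OE 1, 2 and 3. Pvalb, a calcium buffer of fast fibres, measured 931, 1191 and 28.4 CPM in null 1, 2 and 3 and 915, 53.4 and 142 CPM in OE 1, 2 and 3. The calcium release channel Ryr1 measured 772, 1056 and 16.4 CPM in null 1, 2 and 3 and 387, 27.8 and 84.5 CPM in OE 1, 2 and 3. All 19 genes tested had a lower mean in OE fat, 1 at an unadjusted p under 0.05, no more than the 6.39% of all genes.

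In the energy list, Pygm, muscle glycogen phosphorylase, measured 1137, 1347 and 30.4 CPM in null 1, 2 and 3 and 933, 64.1 and 139 CPM in OE 1, 2 and 3. The mitochondrial ADP/ATP carrier gene Slc25a4, which many tissues express, measured 547, 645 and 223 CPM in null 1, 2 and 3 and 451, 264 and 254 CPM in OE 1, 2 and 3 and so varied much less. Eno3, the muscle enolase, measured 607, 737 and 30.2 CPM in null 1, 2 and 3 and 699, 50.3 and 161 CPM in OE 1, 2 and 3. Of the 15 genes, 14 had a lower mean in OE and none an unadjusted p under 0.05.

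Markers of immature muscle were scarce. The factors Mef2d, Mef2c and Mef2a, which are also expressed outside muscle, led the list of myogenic regulators and satellite cells, and Mef2c measured 165, 136 and 22.2 CPM in null 1, 2 and 3 and 87.8, 35.8 and 70.8 CPM in OE 1, 2 and 3. Mef2d ranged from 89.7 to 129 CPM and Mef2a from 71.7 to 122 CPM over the fat libraries. The satellite cell gene Pax7 reached at most 0.546 CPM, Myf5 0.189 CPM and the fusion gene Mymk 0.142 CPM. The embryonic and perinatal heavy chains Myh3 and Myh8 reached 3.09 and 2.36 CPM. Their list also held the other heavy chains Myh13, Myh7b and Myh6. Myh7b reached 1.92 CPM, and the 5 genes summed to 0.694 to 7.22 CPM, so the sum is not of immature muscle alone.

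Markers of other muscle types and of neighbouring cells were summed by list. The 7 cardiac genes summed to 23.5, 20.5 and 27.9 CPM in null 1, 2 and 3 and to 13.6, 30.9 and 9.88 CPM in OE 1, 2 and 3, and OE 2, low in the members, was the highest. Most of that sum was Myl4, an atrial light chain, at 5.03 to 22.5 CPM, and Ryr2, a calcium release channel, at 1.23 to 8.10 CPM. Nppa and Nppb held 0 counts in all fat libraries. The cardiac heavy chain Myh6, which is not among the 7 genes of that sum, was at most at 0.728 CPM. The smooth muscle list summed to 836, 900.0 and 909 CPM in null 1, 2 and 3 and to 373, 880 and 275 CPM in OE 1, 2 and 3, so null 3 was its highest library. The skin list, keratinocyte genes, summed to 368, 24.7 and 148 CPM in null and to 6.15, 45.9 and 7.73 CPM in OE. The nerve and Schwann cell list summed to 588, 561 and 481 CPM in null and to 170, 518 and 224 CPM in OE, and it was lowest in OE 1, a library rich in Myh4.

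Null 1, null 2 and OE 1 were the 3 highest libraries for 1 of the 4 cardiac genes tested (Tnnt2, at most 1.42 CPM) and 1 of the 6 brown fat genes (Zic1, at most 2.29 CPM). This was so for 0 of the tested genes of the smooth muscle, adipocyte, hepatocyte, B cell, T cell, keratinocyte, endothelial, nerve, macrophage and fibroblast lists. The adipocyte list varied 1.62-fold over the fat libraries, from 28391 CPM in OE 1 to 45908 CPM in null 2. The brown fat list, which shares an oxidative metabolism with slow muscle, summed to 45.5 to 78.2 CPM in null and to 240, 53.8 and 162 CPM in OE 1, 2 and 3. The T cell list summed to 5.88 to 16.6 CPM in null and to 516, 38.7 and 550 CPM in OE 1, 2 and 3; in OE 1 both it and Myh4 were high, and in OE 3 it was high with little Myh4.

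The genes outside the list whose pattern over the 6 fat libraries was most like the mean of the members were found by Pearson correlation of log2(CPM + 1), given as a description over 6 libraries that fall into high and low ones. They were Abra, Slc8a3, Cnksr1, Yipf7, 3425401B19Rik, Ankrd23, Mlip, Fem1a, mt-Nd4l and a row named Aldoa, with r between 0.992 and 0.997. The highest, Abra, measured 24.6, 32.4 and 0.374 CPM in null 1, 2 and 3 and 7.47, 0.976 and 2.76 CPM in OE 1, 2 and 3. OE 1 was intermediate in Abra, between the level of Myh4 and that of Myh1 relative to null. The symbol Aldoa stands on 2 identifiers of the table, and this one is ENSMUSG00000114515. With a pseudocount of 0.1 in place of 1, 4 of the 10 genes were the same.

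In liver the members were at trace levels. They summed to 27.9, 19.97 and 17.5 CPM in null 1, 2 and 3 and to 22.0, 32.9 and 16.5 CPM in OE 1, 2 and 3, from 283 to 620 counts per library. Myh4 led there too, with 88.4% to 95.03% of the 4 heavy chains per kilobase, and Myh1 held 3.47% to 7.56%, from 6 to 9 counts per null and 10 to 13 per OE library. The members varied 1.59-fold in null and 2.00-fold in OE liver, far less than in fat.

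No difference beyond the spread between libraries was detected between OE and null liver in the 6 members that could be tested. Their log2 fold changes ran from -0.04 to 0.13 with adjusted p-values of at least 0.973 (edgeR), and 0 of the 6 had an unadjusted p under 0.05. edgeR called 0% of the 13351 genes tested in liver, where 520 were higher and 407 lower at an unadjusted p under 0.05, and DESeq2 called 93 genes. With the replicate number as a block, edgeR called 17 genes in liver, none of them a member. The sign of the small changes turned for most members when OE 2 was left out: 5 of 6 were then below 0 against 1 of 6 with it.

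Between tissues, all 9 members tested were called higher in fat, against 40.0% of all 17070 genes tested (6822 higher and 5007 lower, edgeR, adjusted p under 0.05, with the vector as a covariate). The log2 fold change of fat over liver ran from 7.07 ± 1.498 (SE) for Myh2 to 8.27 ± 0.998 for Acta1, with adjusted p-values of 0.000968 and 8.27e-06. Every fat library lay above every liver library for 8 of the 9, against 27.5% of genes, the exception being Myl2. Myh7, which was not tested, overlapped as well. Myh1, Myh2 and Myl2, which the filter left out in liver, entered the tissue test only through fat, where they were high. Under library size alone 11338 genes were higher and 2479 lower, and the median of all genes rose from 0.23 to 1.11; the changes of the members stayed far above that shift, at 7.88 to 9.15. With the replicate number as a block the changes were lower, at 6.31 for Mylpf to 7.71 for Myl2, and DESeq2 gave Myl2 4.77 against 8.06 in edgeR; each stayed called.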

How the data were processed

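RNA was extracted from liver and subcutaneous fat, and non-strand-specific paired-end libraries were sequenced. Per the methods and the submitters' processing notes, the authors aligned reads with STAR (2.5 in the notes), counted reads per gene with HTSeq 0.6.1 and tested groups with DESeq2. The deposited count table holds raw counts, and the deposited FPKM table holds the authors' values scaled for gene length and depth. The authors' tables of fold changes and p-values for each comparison were not used. The methods name a human genome, but 99.93% of the 54532 identifiers were in mouse GENCODE release 21 (GRCm38) and 98.2% had the same position there.

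Groups came from the sample titles. The descriptions of 2 of the 3 OE libraries in each tissue call them knockout, whereas titles and treatment labels call them overexpression; the titles were followed. Counts were tested with edgeR 4.0.16 in R 4.3.3 (TMM, filterByExpr, quasi-likelihood, Benjamini-Hochberg over all genes tested, adjusted p under 0.05), within fat, within liver, and for tissue over 12 libraries with the vector as covariate. Single members were also compared by an exact permutation test on CPM. The scripts were tested on simulated data. Alternatives were DESeq2 1.42.0, limma 3.58.1 on log2(FPKM + 1) and log2(FPKM + 0.1), other scalings, other filters, a replicate block, 1 fit over 12 libraries and leaving out each library. A floor of 3 counts was used for 0. Same-numbered null and OE libraries deviated together in liver (r = 0.231, 0.191 and 0.116 over genes) and not in fat (0.031, -0.143 and 0.039). For same-numbered liver and fat libraries r was 0.254, 0.038 and 0.139 in null and 0.021, 0.068 and 0.042 in OE. The main tests used no pairing, and the replicate block was an alternative.

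The members, gene lists and tests were chosen with earlier results of these data known. Named genes were the 10 members, the 10 most like genes (Pearson r over the fat libraries, genes with a mean of at least 1 CPM) and the 3 genes with the highest mean CPM in fat from each other muscle list; other genes were picked with their values in view (Tnnc2, Tnnt1, Tnnc1, Tnni1, Myl3, Myoz2, Mybpc1, Mybpc2, Mb, Tpm3, Atp2a2, Casq2, Myl4, Ryr2, Tnnt2, Zic1, Vgll2, Pax7, Myf5 and Mymk) or to show a list near 0. The lists hold 100 muscle genes and 12 sets of markers of other cells. Depth was 15496019 to 19954971 counts per library, so 1 count is about 0.06 CPM.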

Additional observations from a re-analysis of the deposited data

How the results depend on the processing

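The number of genes called between OE and null depended on the processing, and the cause was not tested. In fat it was 0 with edgeR, 1452 with DESeq2, 803 without a filter, 876 with the 12 libraries in 1 fit, 1 with limma on either FPKM scale and 0 to 3251 when 1 library was left out; the 3251 (1957 higher, 1294 lower) came without OE 2, and 2 were called without null 3. In liver it was 0 with edgeR, 93 with DESeq2, 2 under library size alone, 327 without a filter and 0 to 146 when 1 library was left out, the 146 without OE 2. With a replicate block it was 168 in fat, where the numbers did not pair, 17 in liver and 11526 between tissues; the block changed the adjusted call of 1 member, Myl2 in fat (adjusted p = 0.0452, edgeR). Between tissues 11829 genes were called, 7796 with at least 10 counts in every library, and 11680 to 12088 when 1 library was left out.

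All members tested kept a lower mean in OE fat under each alternative run, and a call after adjustment was made for Myl2 in 6 of its 15 alternatives and for no other member that the main filter kept. The range of the summed CPM over the fat libraries was 39.2-fold under library size alone and 41.3-fold under upper quartile scaling. Without 1 library, the group mean of the summed CPM ran from 9741 to 20998 in null fat (highest without null 3) and from 1789.7 to 9003 in OE fat (lowest without OE 1). With 3 libraries a group no exact p under 0.1 can be had. Levels under about 10 counts are imprecise from counting error alone, as for Myh7 and Myl2 in OE fat. The same holds for Myh7, Myl2 and Myh2 in liver and for Myh1 in null liver.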
